A study of Sus scrofa with 6 samples.

Results

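The integrated stress response is the route by which cells react to a shortage of amino acids. Uncharged transfer RNA activates the kinase GCN2, which phosphorylates the translation factor eIF2; most protein synthesis then slows, while translation of the transcription factor ATF4 increases. ATF4 in turn switches on genes for amino acid synthesis, transport and tRNA charging, and in liver it also raises the hormone FGF21. Because ATF4 itself is controlled mainly at translation, the messenger RNAs of its target genes are the usual transcript readout of the pathway.

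The genes described here are 10 members of this response, chosen by name: ATF4, DDIT3, TRIB3, ASNS, CHAC1, SESN2, ATF5, PSAT1, PHGDH and FGF21. Of these, 6 were matched through their Ensembl identifiers to rows of the expression tables, which hold 26733 features: ATF5, SESN2, ASNS, PHGDH, PSAT1 and FGF21. The identifiers of ATF4, DDIT3, TRIB3 and CHAC1 matched no row of the tables used, so these 4 genes were not analysed here. The transcription factor at the head of the response and the stress targets DDIT3, TRIB3 and CHAC1 are therefore not covered by what follows. All 6 matched genes passed the filter on low values (1 FPKM or more in at least 3 libraries), as they lay above 1 FPKM in each of the 6 libraries.

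Liver of newborn Landrace x Yorkshire piglets was sequenced after their mothers had eaten tryptophan on different daily schedules. Sows of the 2×Trp group ate a diet with 0.26% tryptophan at both meals, and sows of the High-Low group ate 0.39% in the morning and 0.13% in the afternoon. The mean of the 2 meals' percentages is the same in both groups. Each group had 3 libraries. The labels do not tie them to separate animals or litters, so a p-value here speaks of the variation among these samples alone, part of which may be technical. The question is whether the uneven maternal supply is accompanied by a different level of these genes in the newborn liver.

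Expression was read as FPKM, fragments scaled to the transcript's length in kilobases and to the size of the library, which is a level per length. The low values of single-exon genes stepped in whole fragments, which places the libraries at about 13300000 to 18800000 fragments each. At that depth 1 FPKM stands for 13.3 to 18.8 fragments per kilobase of usable transcript. The lowest value of any matched gene, SESN2 in High-Low replicate 2, stands for 88.0 fragments per kilobase. The usable length of the 6 matched genes is unknown, so the number of fragments behind each value is unknown too. The tissue label was checked against 10 hepatocyte markers: 9 were matched, their summed level was 44069 to 59661 FPKM in 2×Trp and 42508 to 65463 in High-Low, and AHSG was listed at 0 in all 6 libraries. An exact 0 in such tables may be a failed estimate.

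None of the 6 genes differed between the diets past the threshold, and they did not move to 1 side. FGF21, PSAT1, ASNS and PHGDH had positive log2 fold changes (High-Low minus 2×Trp) and ATF5 and SESN2 negative ones, with a median of 0.12 beside a median of -0.00384 over all 10901 genes tested. In limma, 0 of the 6 had an adjusted p under 0.05, against 0.00917% of all genes tested, and 0 had an unadjusted p under 0.05, against 3.16%. The adjusted p was 0.998 for each of the 6. ATF5 was the 1 gene of the 6 whose values in the diets did not overlap, where 7.18% of all genes tested were so separated and 4.12% with High-Low lower. A share of 1 in 6 rests on a single gene.

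ATF5, a transcription factor of the same bZIP class as ATF4 whose own translation rises when eIF2 is phosphorylated, was by far the most abundant of the 6. It lies on chromosome 6 at 50728147 to 50731295 (plus strand, susScr3). Its level was 1620, 1362 and 1572 FPKM in 2×Trp replicates 1, 2 and 3, and 1068, 1139 and 1284 FPKM in High-Low replicates 1, 2 and 3. Every High-Low library was thus below every 2×Trp library, the nearest pair being High-Low replicate 3 and 2×Trp replicate 2. The means were 1518 ± 137 FPKM and 1164 ± 110 FPKM (SD, n = 3 each). The log2 fold change was -0.38 (SE 0.17, limma; 95% interval -0.79 to 0.02), an unadjusted p of 0.0594 and an adjusted p of 0.998. An exact permutation test over the 6 libraries gave a two-sided p of 0.1, the smallest that 3 against 3 allows. The gene ranked between 118 and 169 among the 26733 features in every library, and its mean level was above that of 98.7% of the genes tested.

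SESN2 encodes a sestrin, a stress-induced protein that restrains the growth kinase complex mTORC1 when leucine is scarce. It lies on chromosome 6 at 79067103 to 79087543 (plus strand). Its level was 14.7, 13.2 and 10.1 FPKM in the 2×Trp replicates and 13.3, 5.66 and 8.84 FPKM in the High-Low replicates. High-Low replicate 1 stood within the 2×Trp range, while High-Low replicates 2 and 3 were the 2 lowest of all. The means were 12.6 ± 2.33 and 9.28 ± 3.86 FPKM (SD, n = 3 each), and the log2 fold change was -0.46 (SE 0.31; 95% interval -1.19 to 0.26, limma). Leaving out High-Low replicate 1 moved the value to -0.74 with an unadjusted p of 0.0353 (adjusted p = 0.999996, limma). In that fit 2.22% of all genes tested had an unadjusted p under 0.05. Leaving out High-Low replicate 2 instead moved the value to -0.18.

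ASNS, which makes asparagine from aspartate and glutamine and is among the best studied ATF4 targets, differed least between libraries. It lies on chromosome 9 at 84879390 to 84898643 (minus strand). Its level was 47.2, 35.6 and 41.9 FPKM in the 2×Trp replicates and 47.0, 52.6 and 40.3 FPKM in the High-Low replicates. The groups overlapped, with High-Low replicate 2 highest and 2×Trp replicate 2 lowest. The means were 41.6 ± 5.77 and 46.6 ± 6.17 FPKM (SD, n = 3 each), with a log2 fold change of 0.16 (SE 0.20; 95% interval -0.30 to 0.63, limma). On the scale of FPKM + 1 the interval runs from 0.812-fold to 1.54-fold, so a larger change than that in either direction lies outside it.

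PHGDH and PSAT1 encode the first and the next enzyme of serine synthesis from a glycolytic intermediate. PHGDH lies on chromosome 4 at 111436317 to 111468486 (minus strand), and its level was 65.7, 65.2 and 98.1 FPKM in the 2×Trp replicates against 88.0, 72.6 and 77.4 FPKM in the High-Low replicates. The highest library was 2×Trp replicate 3, and the 3 High-Low values lay between it and the other 2×Trp libraries. The means were 76.3 ± 18.8 and 79.3 ± 7.89 FPKM (SD, n = 3 each), with a log2 fold change of 0.08 (SE 0.22; 95% interval -0.44 to 0.60, limma). The sign turned without 2×Trp replicate 1 (-0.02) and without 2×Trp replicate 2 (-0.02), as it did with array quality weights (-0.02).

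PSAT1 lies on chromosome 1 at 257809815 to 257834732 (plus strand). Its level was 14.3, 19.1 and 14.2 FPKM in the 2×Trp replicates and 26.3, 13.2 and 25.0 FPKM in the High-Low replicates. High-Low replicates 1 and 3 were the highest of the 6 libraries and High-Low replicate 2 the lowest. The means were 15.9 ± 2.78 and 21.5 ± 7.21 FPKM (SD, n = 3 each), and the log2 fold change was 0.37 (SE 0.29; 95% interval -0.32 to 1.06, limma). Without High-Low replicate 2 it was 0.67, with an unadjusted p of 0.0137 and an adjusted p of 0.342 in limma, in a fit where 13.1% of all genes tested had an unadjusted p under 0.05. Leaving out High-Low replicate 1 instead gave 0.20, and leaving out High-Low replicate 3 gave 0.24. PSPH, which completes serine synthesis, had 8.95, 16.6 and 6.14 FPKM in the 2×Trp replicates and 10.6, 17.0 and 7.15 FPKM in the High-Low replicates, so replicate 2 was highest in both groups.

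FGF21, a hormone that the liver secretes in fasting and in protein shortage, varied most of the 6. It lies on chromosome 6 at 49830008 to 49831887 (plus strand). Its level was 29.1, 7.70 and 17.6 FPKM in the 2×Trp replicates and 17.3, 20.6 and 45.8 FPKM in the High-Low replicates. The lowest and the highest library differed 5.95-fold, against 1.48-fold to 2.59-fold for the other 5 genes, and the groups overlapped. The means were 18.1 ± 10.7 and 27.9 ± 15.6 FPKM (SD, n = 3 each), with a log2 fold change of 0.64 (SE 0.52; 95% interval -0.57 to 1.86, limma). In folds of FPKM + 1 the interval reaches from 0.671 to 3.63, so both a lower level and a rise above 3-fold lie within it. The value was 0.16 without 2×Trp replicate 2, 0.23 without High-Low replicate 3 and 1.06 without 2×Trp replicate 1. The SD of its log2 values over the 6 libraries, 0.81, was larger than that of 94.8% of the genes tested, whereas that of ASNS, 0.20, was larger than that of 18.5%.

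**Figure D1:**
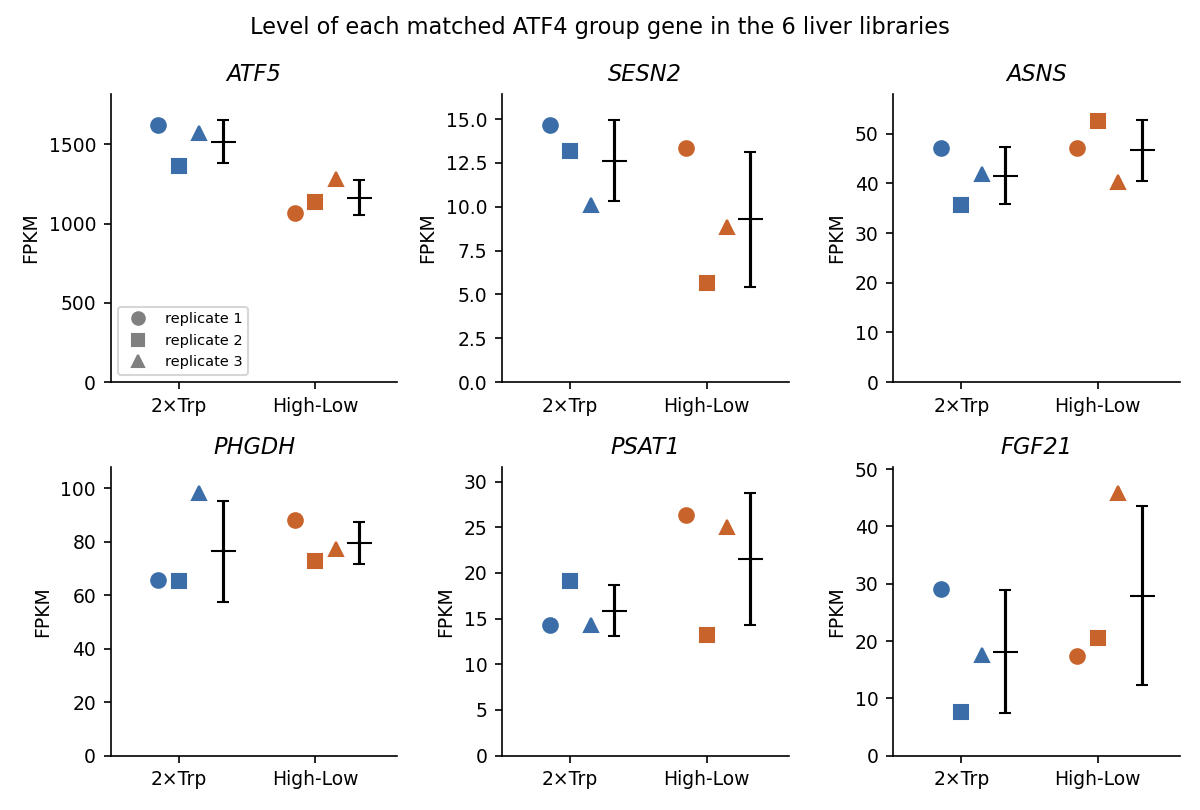
FPKM (vertical axes, each from 0) of the 6 matched genes in the 3 libraries of each maternal diet, with the symbol giving the replicate number and the black bar the mean ± SD of the 3 libraries. The High-Low values of ATF5 (1068 to 1284) all lie below the 2×Trp values (1362 to 1620), and the groups overlap in the other 5 genes.

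**Figure D2:**
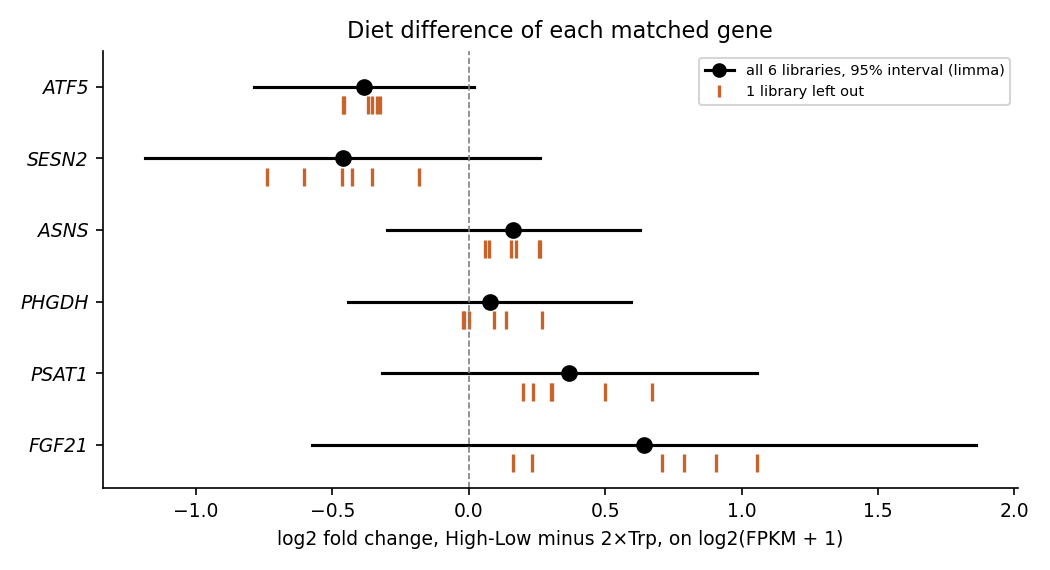
Log2 fold change of each matched gene on log2(FPKM + 1) (horizontal axis, High-Low minus 2×Trp), with the black point and line giving the limma estimate and its 95% interval and the orange ticks the estimates with 1 library left out. All 6 intervals include 0, and the ticks of PHGDH fall on both sides of it.

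The order of the levels was largely shared by all libraries. ATF5 was above PHGDH and PHGDH above ASNS in 6 of 6 libraries. ASNS was above PSAT1 and SESN2 in 6 of 6 and above FGF21 in 5 of 6, the exception being High-Low replicate 3. FGF21 was above PSAT1 in 4 of 6 and above SESN2 in 5 of 6, and PSAT1 was above SESN2 in 5 of 6, so the lower 3 did not keep a fixed order. FPKM depends on the transcript length used, and the lengths listed for PSAT1 (255), PHGDH (307) and FGF21 (362 bases) are far shorter than their loci. That of PSAT1 is little above the 230 to 249 bases subtracted from single-exon lengths to obtain whole fragments. The listed lengths did not give whole fragments for multi-exon genes, so the length behind each of these levels is unknown and the order carries that limit.

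The 6 genes did not rise and fall together between libraries. Over the 15 pairs of genes and 6 libraries, Pearson's r on log2(FPKM + 1) was positive for 8 pairs and negative for 7, with a range of -0.51 to 0.38 and a median of 0.06. Spearman's rho ranged from -0.49 to 0.43. The smallest exact permutation p (two-sided) was 0.294 for Pearson's r and 0.356 for Spearman's rho, and the smallest Benjamini-Hochberg adjusted p over the 15 pairs was 0.921 and 0.985. The pair with the strongest r, ATF5 and PSAT1, had r = -0.51 (exact permutation p = 0.294) and rho = -0.37 (exact permutation p = 0.497). Without the 2 libraries farthest from the median of ATF5, its r was -0.01. The synthesis enzymes PHGDH and PSAT1, successive steps of 1 route, had r = 0.17 (exact permutation p = 0.767) and rho = 0.09 (exact permutation p = 0.919).

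Scaling each library to the same FPKM total, a factor that all genes of a library share, made 11 of the 15 pairs positive with a median r of 0.36. The highest was then ASNS with FGF21, at r = 0.81 (exact permutation p = 0.0625, adjusted p = 0.817) and rho = 0.77 (exact permutation p = 0.103). As deposited, that pair had r = 0.36 (exact permutation p = 0.478) and rho = 0.31 (exact permutation p = 0.564). Without the 2 libraries farthest from the median of ASNS, its r was -0.45. The agreement between these genes thus depended on the scaling, and no pair passed under either.

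Taken within each diet, ATF5 and FGF21 ran in the same order, a pattern chosen after the values were seen. In 2×Trp, replicate 1 was highest, replicate 3 next and replicate 2 lowest for both genes. In High-Low, replicate 3 was highest, replicate 2 next and replicate 1 lowest for both. After each diet's mean was subtracted, r over the 6 libraries was 0.97 (0.96 with scaling to the total), beside a pooled r of 0.06. With the diet means removed, PSAT1 and SESN2 had r = 0.79 (0.82 with scaling to the total) and ASNS and PSAT1 r = -0.75 (-0.31 with that scaling), while ASNS and FGF21 had r = 0.21 (0.78 with it). These values describe 4 of 15 pairs in 3 libraries per diet that share depth and scaling.

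**Figure D3:**
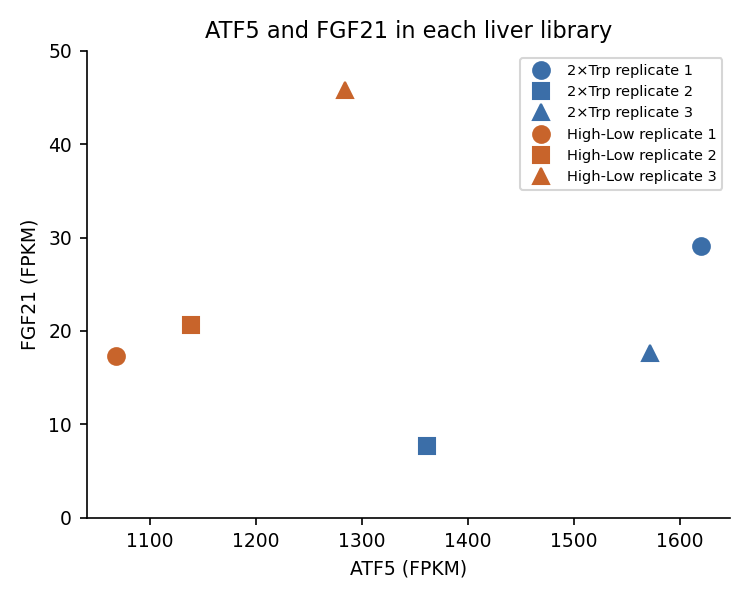
FGF21 (vertical axis, FPKM) against ATF5 (horizontal axis, FPKM, not starting at 0) in each of the 6 libraries, with colour for the maternal diet and the symbol for the replicate number. Within each diet the library with more ATF5 has more FGF21, while the High-Low libraries lie at lower ATF5 (1068 to 1284) than the 2×Trp libraries (1362 to 1620).

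The machinery upstream of ATF4 showed no difference past the threshold. Of 19 genes for the eIF2 kinases and the control of eIF2, 15 were matched and 13 tested; the median log2 fold change was 0.04, with 7 above and 6 below 0, and 0 passed in limma (0 also at an unadjusted p under 0.05). EIF2AK3, which encodes the endoplasmic reticulum kinase PERK, was low, at 1.69, 1.63 and 1.47 FPKM in the 2×Trp replicates and 1.57, 0.963 and 2.24 FPKM in the High-Low replicates. EIF2B4, a subunit of the exchange factor that phosphorylated eIF2 blocks, had 34.3 ± 3.57 FPKM in 2×Trp and 27.1 ± 2.57 in High-Low (SD, n = 3 each) with no overlap (unadjusted p = 0.11, limma). It was the 1 of the 13 tested without overlap, where 7.18% of all genes tested were so separated and 4.12% with High-Low lower. The GCN2 co-activator GCN1 had 21.8 ± 2.22 and 18.1 ± 1.76 FPKM, and the eIF2 kinase inhibitor DNAJC3 28.9 ± 6.22 and 36.1 ± 5.78 (SD, n = 3 each). EIF2A, an initiation factor distinct from eIF2, had 16.3 ± 3.78 and 21.1 ± 5.95 FPKM (SD, n = 3 each). EIF2AK4, the gene for GCN2, matched no row and was not analysed here.

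Of 13 partners and modulators of ATF4, 8 were matched and 7 tested, with 4 positive, 3 negative, a median of 0.19 and 0 past the threshold in limma (0 at an unadjusted p under 0.05). CEBPG, a bZIP protein that pairs with ATF4 on its target genes, had 4.68, 6.42 and 4.59 FPKM in the 2×Trp replicates and 5.22, 4.55 and 4.92 FPKM in the High-Low replicates, within 1 common range. ATF3, a stress-induced factor downstream of ATF4, had 2.42, 1.04 and 1.78 FPKM in 2×Trp and 1.81, 12.2 and 2.81 FPKM in High-Low. The 1 value above 3 FPKM was that of High-Low replicate 2, the library in which SESN2 and PSAT1 were lowest. XBP1, a factor of the unfolded protein response, had 267 ± 53.5 and 216 ± 24.3 FPKM, ATF6, a sensor of the same response, 1.74 ± 0.0653 and 3.38 ± 2.52, and the hepatocyte factor CEBPA 77.8 ± 21.2 and 91.9 ± 27.0 (SD, n = 3 each). HSPA5, the main chaperone of the endoplasmic reticulum, had 255, 294 and 233 FPKM in the 2×Trp replicates and 244, 237 and 248 FPKM in the High-Low replicates.

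Other listed targets of ATF4 lay on both sides of 0. Of 32 listed genes, 19 were matched and 15 tested, of which ATF3 and PPP1R15A are counted in the preceding lists too. TRPM8, which is not an established ATF4 target, is among the matched genes that were not tested. Of the 15, 8 were positive and 7 negative, the median was 0.02, and 0 passed in limma (0 at an unadjusted p under 0.05). EIF4EBP1, a repressor of translation, had 108 ± 11.0 FPKM in 2×Trp and 83.0 ± 17.9 in High-Low, and PCK2, the mitochondrial form of an enzyme of glucose synthesis, had 360.4 ± 31.8 and 299 ± 46.3 (SD, n = 3 each). CTH, which makes cysteine from cystathionine, had 97.1 ± 40.9 and 65.1 ± 43.1 FPKM (SD, n = 3 each). In the serine and one-carbon route, 10 of 13 genes were matched and 9 tested, PHGDH and PSAT1 among them, with 6 positive, 3 negative, a median of 0.08 and 0 past the threshold (0 at an unadjusted p under 0.05). GLDC, of the glycine cleavage system, had 16.6, 12.1 and 9.82 FPKM in 2×Trp and 29.7, 12.1 and 22.9 FPKM in High-Low, so High-Low replicate 2 stood apart here from High-Low replicates 1 and 3, as it did for PSAT1. The folate enzyme ALDH1L1 had 109.5 ± 20.6 and 80.9 ± 30.1 FPKM, and its mitochondrial relative ALDH1L2 3.13 ± 0.127 and 4.78 ± 2.56 (SD, n = 3 each).

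Among 12 amino acid transporters known to respond to ATF4, 8 were matched and only 3 passed the filter: SLC3A2 and SLC1A5 had negative and SLC1A4 a positive log2 fold change, and 0 passed at an adjusted p under 0.05 in limma. SLC3A2 was the 1 of the 3 with an unadjusted p under 0.05 (3.16% of all genes tested). It was also the 1 without overlap (7.18% of all genes tested, and 4.12% with High-Low lower). SLC3A2, the shared heavy chain of several neutral and aromatic amino acid exchangers, had 53.0, 35.1 and 40.4 FPKM in the 2×Trp replicates and 17.6, 25.8 and 22.9 FPKM in the High-Low replicates. Every High-Low library was below every 2×Trp library, with a log2 fold change of -0.92 (SE 0.23, limma), an unadjusted p of 0.00517 and an adjusted p of 0.998. SLC1A5 had 8.50 ± 1.47 and 6.15 ± 1.70 FPKM (SD, n = 3 each). SLC1A4 had 26.2 and 20.1 FPKM in High-Low replicates 1 and 3 and 5.20 FPKM in High-Low replicate 2, against 6.95 to 10.8 FPKM in 2×Trp. SLC7A11, the cystine carrier that ATF4 induces, was listed at 0 in all 6 libraries.

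Of 20 cytosolic aminoacyl-tRNA synthetases, which charge tRNA and many of which ATF4 induces, 17 were matched and all 17 tested. Of these, 7 were positive and 10 negative, with a median of -0.06, and 0 passed at an adjusted p under 0.05 in limma. CARS1, the synthetase for cysteine, was the 1 with an unadjusted p under 0.05, where 3.16% of all genes tested had one. CARS1 was also the 1 of the 17 without overlap, where 7.18% of all genes tested were so separated and 4.12% with High-Low lower. It had 13.7, 11.9 and 12.4 FPKM in the 2×Trp replicates and 6.41, 6.41 and 9.06 FPKM in the High-Low replicates, with no overlap and a log2 fold change of -0.73 (SE 0.21; unadjusted p = 0.00844, adjusted p = 0.998). WARS1, the synthetase for tryptophan, had 27.1, 20.0 and 22.5 FPKM in 2×Trp and 16.5, 19.1 and 21.0 FPKM in High-Low, where High-Low replicate 3 exceeded 2×Trp replicate 2. The log2 fold change of WARS1 was -0.28 with an unadjusted p of 0.197 in limma. HARS1 had 30.1 ± 3.50 and 26.1 ± 4.89 FPKM and GARS1 16.7 ± 1.61 and 18.9 ± 1.66 (SD, n = 3 each).

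Genes that control or receive FGF21 gave 5 positive and 3 negative values among 8 tested of 9 listed, FGF21 included, with a median of 0.19 and 0 past the threshold in limma (0 at an unadjusted p under 0.05). PPARA, the fasting-activated receptor that also raises FGF21, had 3.39, 1.65 and 1.74 FPKM in 2×Trp and 4.46, 2.38 and 5.47 FPKM in High-Low. It was highest in High-Low replicate 3, the library with the most FGF21. The next highest, High-Low replicate 1, had the lowest FGF21 of the High-Low libraries (17.3 FPKM). KLB, the co-receptor for FGF21, had 1.85 ± 0.308 and 3.05 ± 1.91 FPKM, and FGFR4, the main fibroblast growth factor receptor of hepatocytes, 30.9 ± 9.11 and 38.9 ± 14.9 (SD, n = 3 each).

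**Figure D4:**
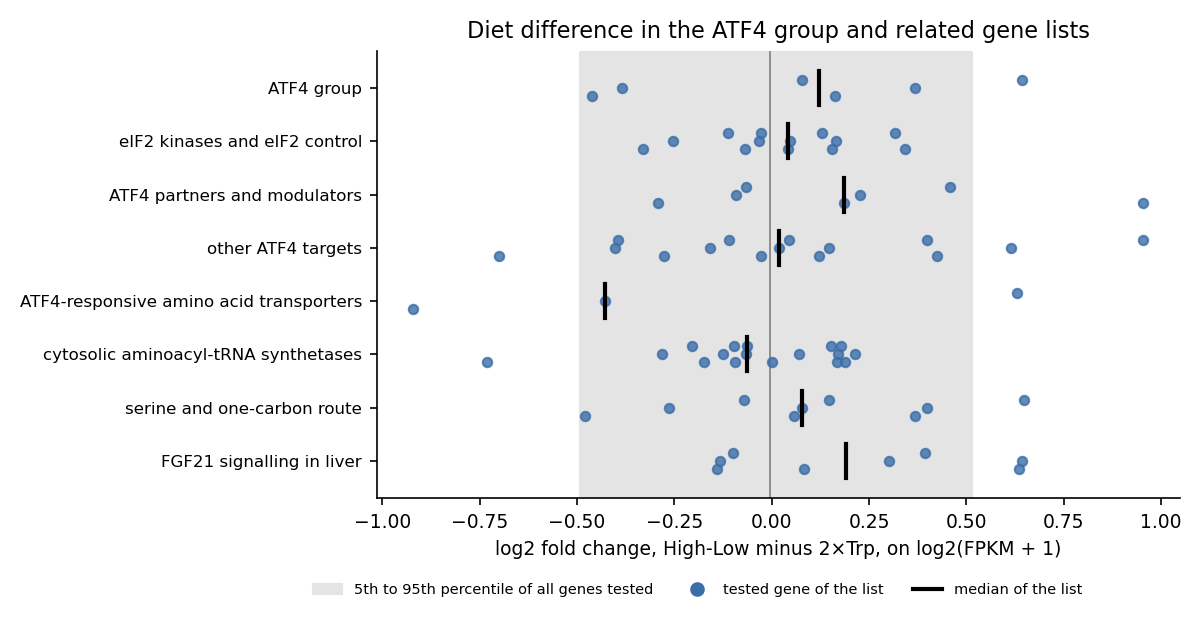
Log2 fold change on log2(FPKM + 1) (horizontal axis, High-Low minus 2×Trp) of every tested gene of the ATF4 group and 7 related lists, with the black bar giving each list's median, the grey line the median of all genes tested and the grey band their 5th to 95th percentile (-0.49 to 0.52). List medians lie between -0.43, for the 3 transporters, and 0.19, and SLC3A2 (-0.92) and ATF3 (0.95) are the farthest single genes.

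Markers of other cell types also differed between the libraries. In bulk liver, fewer cells of a type and less RNA per cell cannot be told apart. All 6 tested endothelial markers of 10 listed were negative, with a summed level of 81.9 to 121 FPKM in 2×Trp and 56.6 to 80.7 in High-Low. Of 5 tested macrophage markers of 9 listed, 4 were negative (413 to 572 against 246 to 444 FPKM). All 5 tested erythroid markers of 8 listed were negative (6170 to 15892 against 1817 to 7199 FPKM). The lowest endothelial, macrophage and erythroid sums were all those of High-Low replicate 1, which also had the lowest ATF5 and SLC3A2. C1QA made up 190 of the macrophage sum of 246 FPKM in that library, and HBB 1793 of the erythroid sum of 1817. Among the tested markers of these types, that library was not lowest for KDR, TEK, MARCO and TRIM10. All 5 tested neutrophil markers of 8 listed were positive (24.7 to 35.2 against 30.4 to 98.5 FPKM). The 98.5 FPKM were those of High-Low replicate 2, beside 30.4 and 37.1 FPKM in High-Low replicates 1 and 3. Among the High-Low libraries, replicate 2 was also highest for ATF3 and lowest for SESN2, PSAT1, GLDC and SLC1A4. Its GLDC level of 12.1 FPKM lay within the 2×Trp range. Over all genes tested, Spearman's rho was lowest between High-Low replicates 1 and 2 (0.877, against 0.887 to 0.945 for the other pairs of libraries). Differences between these libraries were thus not limited to the genes named here. Of the markers of these 4 cell types, 0 passed at an adjusted p under 0.05 in limma. An unadjusted p under 0.05 was reached by 4 macrophage, 2 erythroid, 1 endothelial and 0 neutrophil markers, beside 3.16% of all genes tested, of which 5510 of 10901 were negative. Stellate and fibroblast markers summed to 95.4 to 150.2 FPKM in 2×Trp and 96.9 to 132 in High-Low, with 2 of 5 tested of 8 listed positive, and bile duct markers to 4.70 to 7.51 and 5.59 to 7.85, with 2 of 2 tested of 5 listed positive. No matched marker of these 6 cell types was at 0 in all libraries, and the part of cell makeup in the values of ATF5, SLC3A2 and CARS1 was not tested.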

How the data were processed

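Newborn liver RNA was extracted with Trizol and made into TruSeq libraries, per the labels' protocols, and groups and replicate numbers come from the sample titles. TopHat2 2.0.12, Bowtie2 2.2.3, HTSeq 0.6.1 and the assembly susScr3 are listed in the submitters' processing notes, with no role stated. The sources used here do not say how the values were computed, from which annotation or with which strand setting. Each library has 1 table from the authors with an unlabelled value column; what they deposited was taken as FPKM, since they are not whole, their totals differ (956426 to 1230288), and 97.0% to 98.5% of the low values of single-exon genes of 800 bases or more were whole multiples (within 0.03) of 1 fragment over the length minus 230 to 249 bases. For multi-exon genes this share was 4.08% to 4.73%, so counts could not be recovered and no count model was run.

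A table of Ensembl identifiers gave symbols for 11804 of 25322 identifiers and matched 124 of 175 list symbols. Genes at 1 FPKM or more in at least 3 libraries (10901) were tested between the diets by limma 3.58.1 (R 4.3.3; variance trend, robust estimation) after a log2 transform of FPKM + 1, with p-values adjusted by Benjamini-Hochberg over all of them. Fold changes on this scale understate the change of low genes. The fit was tested on simulated data. The members and lists were chosen with earlier results of these data known. Named genes are the members, the 4 genes of smallest p of each related list and a fixed set (PSPH, SLC7A11, SLC3A2, EIF2AK3, CEBPG, WARS1 and HSPA5; EIF2AK4, CEBPB and DDIT4 matched no row). Alternatives were other scalings, filters and pseudocounts, other variance settings, sample weights, a replicate block and leaving out each library. Sequences are not used here. Figures were drawn with matplotlib 3.10.9.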

Additional observations from a re-analysis of the deposited data

How the results depend on the processing

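Across 15 alternatives, ATF5 and SESN2 kept a negative and ASNS, PSAT1 and FGF21 a positive log2 fold change, and 0 of the 6 genes passed the adjusted threshold in any (smallest adjusted p 0.239, PSAT1 with array quality weights). PHGDH turned to -0.0222 with array quality weights and ran from -0.0215 to 0.27 without single replicates. The other ranges without single replicates were -0.46 to -0.32 for ATF5, -0.74 to -0.18 for SESN2, 0.06 to 0.26 for ASNS, 0.20 to 0.67 for PSAT1 and 0.16 to 1.06 for FGF21. Array quality weights gave PSAT1 0.62 and FGF21 1.24, with unadjusted p of 0.0125 and 0.0252 (limma). In that fit 16.4% of all genes tested had an unadjusted p under 0.05, against 3.16% in the same fit without weights. Of all genes, 1 was higher in place of 1 and 1 lower in place of 0 with scaling to the total, scaling to the nuclear total, quantile normalization and array quality weights, and without single replicates 1 to 2 were higher. With the replicate block 1 gene was higher and 0 were lower, as without it, and no call of the 6 genes changed. Deviations of same-numbered libraries correlated at -0.22, -0.01 and 0.03. With 3 libraries per diet these values cannot decide whether the replicate numbers pair the libraries. The transporter median was -0.00361 without a filter, where genes near 0 enter, the FGF21 list -0.00829 with the filter at 5 FPKM, and the synthetase median 0.0437 with array quality weights. Without single replicates medians ran from -0.0415 to 0.12 (eIF2 control), -0.13 to 0.23 (partners), -0.10 to 0.15 (other targets), -0.08 to 0.16 (serine route, -0.0222 with array quality weights), -0.56 to -0.22 (transporters) and -0.10 to 0.0478 (synthetases). Scaling to the total turned r to 0.12 for ASNS with ATF5, 0.34 for ATF5 with PHGDH and 0.0745 for PHGDH with SESN2. The cause of these shifts was not tested. The planned step that leaves out libraries by their ATF4 level, and the count tests, were not run.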

Other observations

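The libraries did not line up by diet in the mean standardized log2 value of the 6 matched genes, given as a description. It was 0.27, -0.51 and 0.18 in 2×Trp replicates 1, 2 and 3 and 0.29, -0.44 and 0.21 in High-Low replicates 1, 2 and 3. 2×Trp replicate 2 held the lowest value of ASNS, PHGDH and FGF21, and High-Low replicate 2 that of SESN2 and PSAT1. By a fixed rule, the 5 genes with a symbol whose log2(FPKM + 1) followed this mean most closely over the 6 libraries, out of 6526, were MLXIP (Pearson's r = 0.991), MYH11 (0.987), ZNF410 (0.985), SPATS2 (0.983) and RAPGEF1 (0.981). With 6 libraries and that many genes, such values are a ranking only.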
